A study of Homo sapiens with 8 samples.

Results

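The interleukin 1 and interleukin 6 family cytokines and receptors were followed in AB8, a human line that derives from podocytes, the epithelial cells of the kidney filter. The set had 10 genes, taken by name from a table of 58395 genes: the ligands IL1A, IL1B, IL18, IL33, IL6, IL11 and LIF, and the receptor subunits IL1R1, IL1RAP and IL6ST. All 10 had at least 1 read, and 9 passed the filter on low counts and were tested. The cells of all 8 libraries carried an inducible construct for human CRB2, a membrane protein of the Crumbs polarity complex, with GFP and the S267A change, and were used at passage 3 to 8 after that modification. In the 4 induced libraries the cells had been given doxycycline for 48 h, and in the 4 non-induced libraries they had not. Replicate numbers 1 to 4 were used in both groups. The labels do not say whether the line is 1 clone. Doxycycline-treated cells without the construct were not analysed here, so effects of the drug, of GFP, of raised CRB2 and of the S267A change cannot be told apart.

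Interleukin 1 alpha and beta, the products of IL1A and IL1B, bind the receptor IL1R1, which signals together with the accessory protein IL1RAP through MYD88 and IRAK kinases to NF-kB and AP-1. Interleukin 18 and interleukin 33 belong to the same family, need receptors of their own, and interleukin 33 shares IL1RAP. Interleukin 6, interleukin 11 and LIF signal through the shared subunit gp130, the product of IL6ST, to JAK kinases and STAT3, and induce the feedback inhibitor SOCS3. IL6 is itself a classical target of interleukin 1 signalling in many cell types.

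The libraries held 16829454 to 23081616 counted reads, with 23636 to 24545 genes detected. CRB2 had 1731, 4246, 4593 and 4475 CPM (reads scaled by the TMM-adjusted library total) in induced libraries 1 to 4, against 8.295, 25.97, 26.34 and 21.74 CPM in non-induced libraries 1 to 4, a log2 change of 7.51 (SE 0.52, adjusted p = 0.0016, edgeR quasi-likelihood test). The summed podocyte markers lay at 292.5 to 313.7 CPM in induced and 263.8 to 304.5 CPM in non-induced libraries, but NPHS1, which encodes the slit diaphragm protein nephrin, had 3 reads in all. The 10 leukocyte markers summed to 3.282 to 3.976 CPM in induced and 4.663 to 5.077 CPM in non-induced libraries, with TYROBP at 0 and PTPRC at 1 read. None of the 3 tested leukocyte markers was called with all 4 pairs in either fit, and CSF1R was called lower with the block when pair 1 was left out (log2 change -0.88, adjusted p = 0.0266). The 6 mesangial markers summed to 13.28 to 18.78 CPM in induced and 12.87 to 14.41 CPM in non-induced libraries, with ITGA8 and PDGFRA at 0. The 6 endothelial markers summed to 0.713 to 1.31 CPM in induced and 0.777 to 1.45 CPM in non-induced libraries, with KDR at 0. With the replicate block, the mesangial marker PDGFRB was called higher (log2 change 0.34, adjusted p = 0.0299), as was the podocyte marker PODXL (log2 change 0.49, adjusted p = 0.035). The PDGFRB call was lost without pair 1, 3 or 4 and the PODXL call without pair 1, 2 or 4. The part of these marker differences in the results below was not tested. In this bulk RNA, fewer cells of a type and less RNA per cell cannot be told apart. Both libraries numbered 1 stood apart: their deviations from the group means correlated at 0.911 with each other across genes and at -0.775 to -0.617 with the differently numbered libraries of the other group. IL1A, IL1B, IL18, IL1R1 and IL6 were each lowest in library 1 of both groups. Most calls that change without that pair are given below.

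Sequence before the RefSeq transcription start is shown for IL6, IL1B and IL11, so that the letters searched can be read beside the values. Among the ligand genes with a promoter window, these are the ones with a match outside the exons annotated in GENCODE 29 on the strand of the gene. IL18 and LIF had no window and were not searched. Exons on the opposite strand were not looked at. Capitals mark matches to the 4 patterns searched on both strands in the 250 bases before each RefSeq start (GRCh38.p14): GGAANNTCC, like an NF-kB site, TGANTCA, like an AP-1 site, TTCNNNGAA, like a STAT site, and TTGCNNAA, like a C/EBP site. The IL6 stretch is chr7:22726950-22727146 on the plus strand, the IL1B stretch chr2:112836904-112837029 on the minus strand and the IL11 stretch chr19:55370464-55370713 on the minus strand, each printed 5′ to 3′ along its gene. The IL6 and IL1B stretches end where an exon annotated in GENCODE 29 on the same strand begins inside the window. The IL6 stretch lies within the span of IL6 in GENCODE 29, which starts at 22725884.
IL6 promoter: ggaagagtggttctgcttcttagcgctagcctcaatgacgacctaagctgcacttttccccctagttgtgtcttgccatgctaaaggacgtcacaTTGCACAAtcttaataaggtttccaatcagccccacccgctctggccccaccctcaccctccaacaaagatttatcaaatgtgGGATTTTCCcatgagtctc
IL1B promoter: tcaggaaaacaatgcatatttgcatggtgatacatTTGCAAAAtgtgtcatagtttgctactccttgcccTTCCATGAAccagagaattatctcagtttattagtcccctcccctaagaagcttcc
IL11 promoter: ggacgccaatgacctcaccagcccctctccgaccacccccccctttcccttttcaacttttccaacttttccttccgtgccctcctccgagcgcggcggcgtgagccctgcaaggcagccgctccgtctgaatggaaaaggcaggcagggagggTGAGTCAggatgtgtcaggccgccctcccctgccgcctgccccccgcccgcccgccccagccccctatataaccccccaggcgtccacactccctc

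The NF-kB-like letters of IL6 lay 72 to 64 bases before the RefSeq start and its C/EBP-like letters 155 to 148 bases before it. IL1B had C/EBP-like letters 215 to 208 and STAT-like letters 180 to 172 bases before the start, and IL11 had AP-1-like letters 96 to 90 bases before it. IL1A had AP-1-like letters in both of its windows, within an annotated exon, and is not printed. No 2 matches overlapped in these windows. Of the 27305 genes with a promoter window, 4.71% had the NF-kB-like pattern in at least 1 window, 8.06% the AP-1-like, 8.09% the STAT-like and 11% the C/EBP-like pattern. Among the 8 member genes with a window, the NF-kB-like pattern was found in 1, and each of the others in 2. A match of letters is a description of the sequence and shows no binding.

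**Figure D1:**
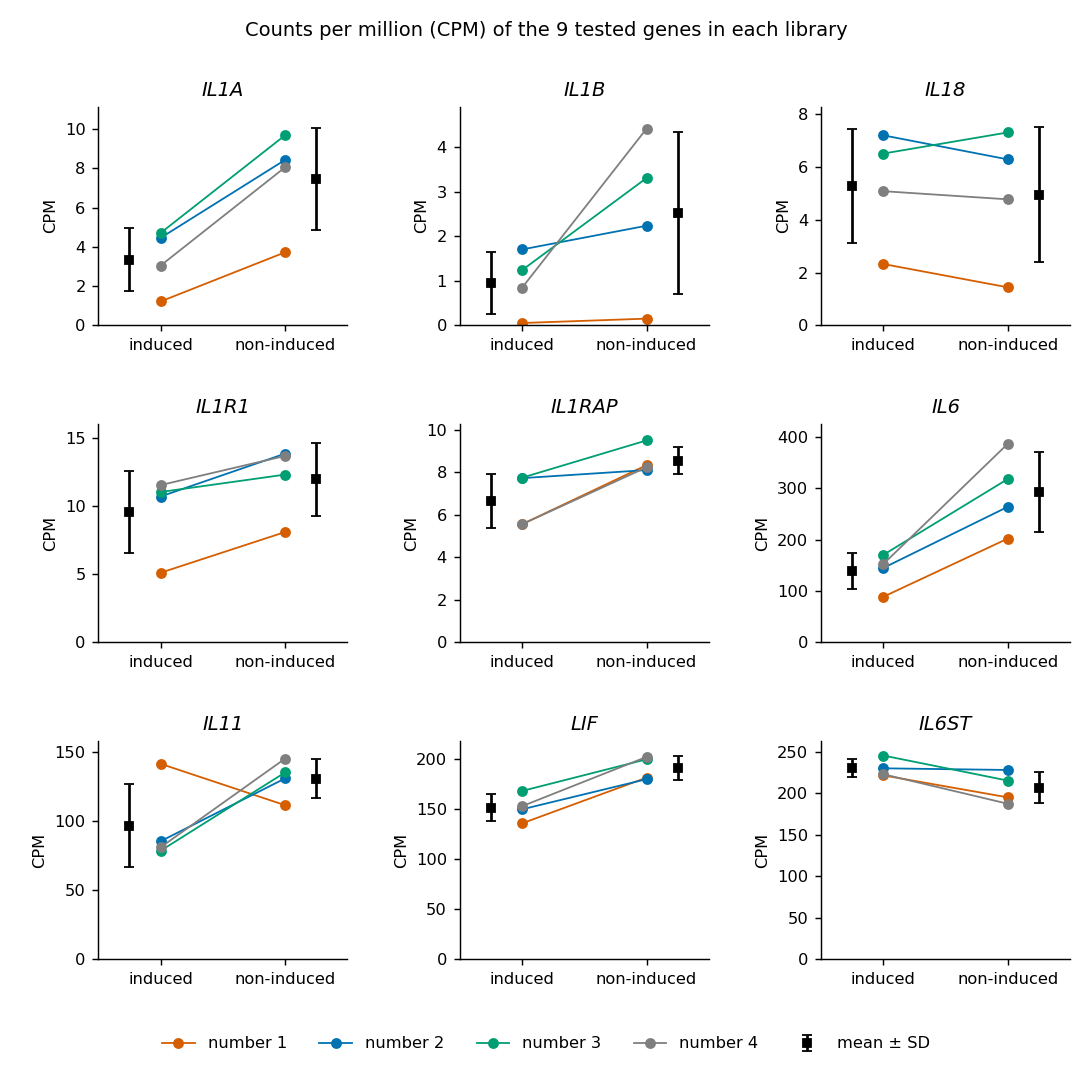
CPM (y axis, from 0) of the 9 tested genes in the 4 induced and 4 non-induced libraries (x axis). Lines join libraries with the same replicate number, and black squares with bars are the group mean ± SD. IL6, LIF and IL1RAP were lower in all 4 induced libraries than in any non-induced library, and library 1 of both groups was the lowest for IL1A, IL1B, IL18, IL1R1 and IL6.

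Induction of the construct was compared with its absence. Of the 9 tested genes, 7 had a negative log2 change without a replicate block, where 7786 of all 15637 tested genes had one. In the fit without a replicate block none of the 9 passed an adjusted p of 0.05 (edgeR quasi-likelihood test, adjusted over 15637 genes), 5 had an unadjusted p under 0.05, and DESeq2 called 2, IL6 and LIF. Over all tested genes 6 passed in the edgeR fit, 0.0384%, and 1466 had an unadjusted p under 0.05. DESeq2 called 187 of 31576 genes with a p-value. These genes were not limited to the 15637 kept by the edgeR filter. They can include genes without an adjusted p, which cannot be called, so the DESeq2 and edgeR shares are not alike. The replicate numbers were taken to pair the libraries, from correlations that told libraries 2 and 3 apart only weakly. With the number as a block, 7 of the 9 passed. Over all tested genes 2159 passed with the block, 13.8%. Of the 7, IL1A, IL1B, IL1R1, IL1RAP, IL6 and LIF fell and IL6ST rose, where 6.29% of all tested genes were called lower and 7.51% were called higher. The members were chosen with earlier results of these data known, so their shares beside those of all tested genes are no independent evidence. Values from the fit with the block are given below unless stated otherwise. Without pair 1 the block fit called 5 members, IL1A, IL1B, IL6, IL11 and LIF, all lower. It called 1721 of 15769 tested genes. Whichever pair was left out, IL1A, IL6 and LIF kept their calls.

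IL1A, which encodes interleukin 1 alpha, had 1.213, 4.457, 4.708 and 3.043 CPM in induced libraries 1 to 4, against 3.725, 8.440, 9.697 and 8.064 CPM in non-induced libraries 1 to 4. Each induced library was below its same-numbered partner, while the groups overlapped through the non-induced library 1. The mean was 3.36 ± 1.605 CPM in induced and 7.48 ± 2.60 CPM in non-induced cells (SD, n = 4 each), a fall of 55.5% in the fit (log2 change -1.17, SE 0.13, adjusted p = 6.59e-05). Without the block the log2 change was -1.15 with an SE of 0.42 and an adjusted p of 0.427.

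IL1B, which encodes the interleukin 1 beta precursor, was near the limit of detection, with 1, 39, 26 and 16 reads in induced libraries 1 to 4 and 3, 48, 71 and 74 reads in non-induced libraries 1 to 4. These counts are 0.0505, 1.70, 1.237 and 0.839 CPM in induced and 0.149, 2.24, 3.31 and 4.42 CPM in non-induced libraries. Every pair was lower on the induced side, but the groups overlapped. The log2 change was -1.34 (SE 0.29, adjusted p = 0.0127 with the block and 0.706 without it). The call was lost without pair 3 (adjusted p = 0.0723) or pair 4 (adjusted p = 0.0731). In pair 1 the ratio of induced to non-induced CPM was 0.339, with a 95% exact counting interval of 0.00646 to 4.23, and in pair 2 it was 0.761, with an interval of 0.486 to 1.19.

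IL18, which encodes the interleukin 18 precursor, had 2.33, 7.21, 6.52 and 5.09 CPM in induced libraries 1 to 4, against 1.44, 6.29, 7.32 and 4.78 CPM in non-induced libraries 1 to 4. The induced library was higher in pairs 1, 2 and 4 and lower in pair 3, and the groups overlapped across nearly their whole range. The log2 change of 0.12 (SE 0.13) did not pass (adjusted p = 0.601). Spread among the replicate numbers was far larger than the difference between groups. IL33, a nuclear alarmin of the same family, had 1 read in all 8 libraries, in non-induced library 3, and was not tested. A count of 0 allows up to 3 reads a library, or 0.13 to 0.178 CPM of the library total, counting error only.

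IL1R1, the signalling receptor for both interleukin 1 forms, had 5.11, 10.7, 11.0 and 11.5 CPM in induced libraries 1 to 4, against 8.10, 13.8, 12.3 and 13.7 CPM in non-induced libraries 1 to 4. It was lower in all 4 pairs, with overlapping groups. The log2 change was -0.34 (SE 0.09, adjusted p = 0.0242 with the block and 0.804 without it), a fall of 20.8%. The call was lost without pair 1, 2 or 4, with adjusted p values of 0.0704, 0.0684 and 0.065.

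IL1RAP, the co-receptor that IL1R1 needs to signal, had 5.56, 7.73, 7.75 and 5.56 CPM in induced libraries 1 to 4, against 8.34, 8.11, 9.51 and 8.24 CPM in non-induced libraries 1 to 4. The groups did not overlap, although in pair 2 the ratio of 0.953 had a counting interval of 0.769 to 1.18. The mean was 6.65 ± 1.26 CPM in induced and 8.55 ± 0.645 CPM in non-induced cells (SD, n = 4 each). The log2 change was -0.36 (SE 0.10, adjusted p = 0.0343 with the block and 0.485 without it), and the call was lost without pair 1, 3 or 4, with adjusted p values of 0.124, 0.0755 and 0.149.

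IL6, which encodes interleukin 6, had 88.55, 144.6, 170.1 and 152.2 CPM in induced libraries 1 to 4, against 201.9, 263.7, 317.8 and 386.4 CPM in non-induced libraries 1 to 4. All 4 induced libraries lay below all 4 non-induced ones. The mean was 139 ± 35.2 CPM in induced and 292 ± 78.5 CPM in non-induced cells (SD, n = 4 each), a fall of 52.5% (log2 change -1.07, SE 0.09, adjusted p = 0.00257). Without the block the log2 change was also -1.07, with an SE of 0.24 and an adjusted p of 0.214. Within pairs the induced to non-induced ratio was 0.439, 0.548, 0.535 and 0.394 for numbers 1 to 4, each with a counting interval below 1. Transcripts annotated on the opposite strand of IL6 had few reads, 273 for AC073072.1 and 31 for STEAP1B in 8 libraries, beside 34545 for IL6.

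LIF, which encodes leukemia inhibitory factor, had 135.6, 149.6, 167.9 and 152.7 CPM in induced libraries 1 to 4, against 181.2, 179.7, 199.5 and 201.9 CPM in non-induced libraries 1 to 4. The groups did not overlap, and every pair was lower on the induced side. The difference was smaller than that of IL6, with a fall of 20.6% (log2 change -0.33, SE 0.04, adjusted p = 1.39e-04), and 151 ± 13.2 CPM in induced against 191 ± 11.8 CPM in non-induced cells (SD, n = 4 each). Without the block the adjusted p was 0.213. Of the 10 genes, 3 did not overlap between groups with the induced side lower, IL1RAP, IL6 and LIF, where this held for 3.22% of all tested genes.

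IL11, which encodes interleukin 11, had 141.2, 85.3, 78.4 and 80.9 CPM in induced libraries 1 to 4, against 111.3, 130.7, 135 and 145 CPM in non-induced libraries 1 to 4. Induced libraries 2, 3 and 4 lay below all non-induced libraries, while induced library 1 was second to non-induced library 4 as the highest of the 8. The pair ratio was 1.269 in pair 1, with a counting interval of 1.200 to 1.342, and 0.653, 0.581 and 0.558 in pairs 2 to 4, all with intervals below 1. Over all 4 pairs the log2 change was -0.47 (SE 0.27) and did not pass (adjusted p = 0.387 with the block and 0.529 without it). Without pair 1 it was -0.75, with an adjusted p of 1.47e-06. Induced library 1 was also the induced library with the lowest CRB2, 1731 CPM, and the part of this in the IL11 value was not tested.

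IL6ST, which encodes gp130, the subunit shared by the receptors of IL6, IL11 and LIF, was the only tested member called higher with the block. It had 221.6, 230.1, 245.5 and 223 CPM in induced libraries 1 to 4, against 195.1, 228.1, 215.3 and 187.4 CPM in non-induced libraries 1 to 4. Every induced library was above its partner, though in pair 2 the ratio of 1.009 had a counting interval of 0.970 to 1.049, and the groups overlapped. The log2 change was 0.16 (SE 0.04, adjusted p = 0.0192 with the block and 0.556 without it). The call was lost without pair 1, 3 or 4, with adjusted p values of 0.0603, 0.109 and 0.128.

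**Figure D2:**
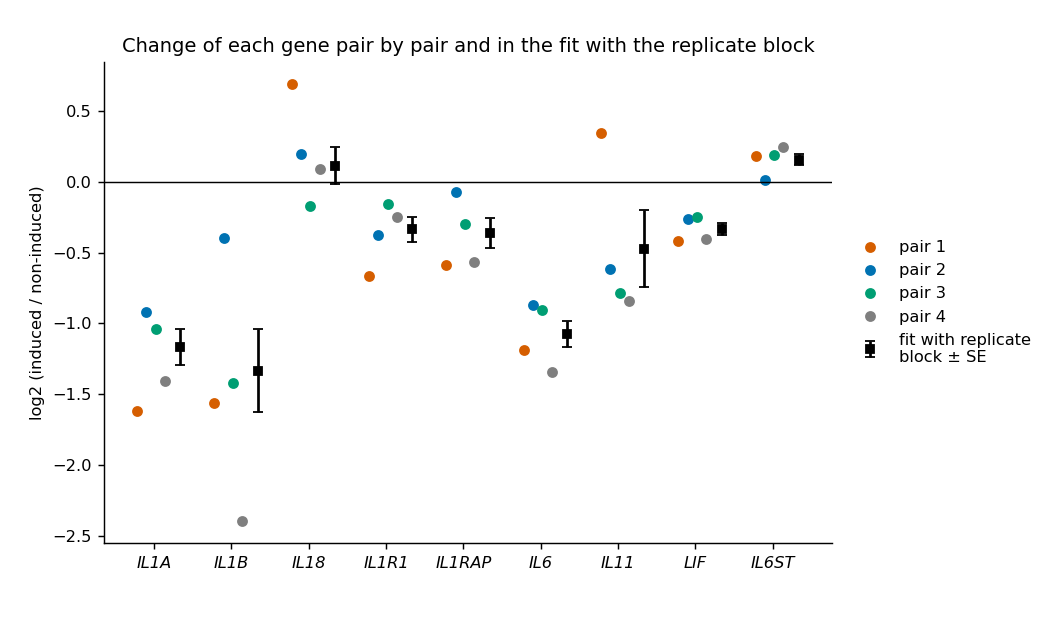
Log2 ratio of induced to non-induced CPM (y axis) in each same-numbered pair (coloured points) for the 9 tested genes (x axis). Black squares with bars are the log2 change ± SE of the fit with the replicate block. IL1A, IL1B, IL1R1, IL1RAP, IL6 and LIF were below 0 in all 4 pairs, IL6ST was above 0 in all 4, and IL11 was above 0 in pair 1.

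Pair by pair, 28 of the 36 ratios were below 1, and 21 had a counting interval wholly below 1 and 4 wholly above it. These counts are a description, since they were not made over all tested genes. The intervals narrow as reads rise, and the 36 ratios come from the same 4 pairs and are not independent. The median log2 ratio over the 9 genes was -0.59, -0.37, -0.29 and -0.57 in pairs 1 to 4, where the median over all tested genes was 0.01, 0.00, 0.00 and 0.00. Lower in all 4 pairs were 6 of the 9, against 17% of all tested genes, and higher in all 4 pairs was 1, against 18.6% of all tested genes. Since the members were chosen with earlier results of these data known, this contrast is no independent evidence.

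Per kilobase of merged exons, the gp130 cytokines stood far above the interleukin 1 family in both groups. The level of IL6 was 67.1 ± 17.02 CPM per kb in induced and 141 ± 38.0 CPM per kb in non-induced cells (SD, n = 4 each), the highest mean of the 10 in both. In induced library 1, however, IL11 was at 52.9 and IL6 at 42.8 CPM per kb, so the induced ranges of these genes overlapped. LIF was at 38.2 ± 3.34 CPM per kb in induced and 48.0 ± 2.96 CPM per kb in non-induced cells, and IL11 was at 36.1 ± 11.2 and 48.9 ± 5.30 CPM per kb in induced and non-induced cells. The ranges of LIF and IL11 overlapped in both groups, so their order is not set by these data. IL6ST was the fourth, at 24.8 ± 1.18 CPM per kb in induced and 22.2 ± 2.005 CPM per kb in non-induced cells, and did not overlap with its neighbours in either group.

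Among the interleukin 1 family genes no level per length reached 5 CPM per kb in any library. IL18 averaged 2.01 ± 0.823 CPM per kb in induced and 1.89 ± 0.977 CPM per kb in non-induced cells, and IL1A 1.58 ± 0.756 CPM per kb in induced and 3.52 ± 1.22 CPM per kb in non-induced cells. IL1R1 stood at 1.36 ± 0.426 CPM per kb in induced and 1.69 ± 0.379 CPM per kb in non-induced cells. IL1RAP was at 0.576 ± 0.109 and IL1B at 0.309 ± 0.226 CPM per kb in induced cells, and at 0.740 ± 0.0558 and 0.817 ± 0.588 CPM per kb in non-induced cells. In order of the induced means, from IL18 down to IL1B, neighbours overlapped in range in induced cells except IL1R1 and IL1RAP. In order of the non-induced means, IL1A, IL18, IL1R1, IL1B and IL1RAP, all neighbours overlapped in non-induced cells. These orders and overlaps hold for merged exons only. Per kb of the longest transcript, the induced mean of IL1R1 (1.87 CPM per kb) was above that of IL1A (1.58 CPM per kb). By that length the non-induced mean of IL1RAP (1.58 CPM per kb) was above that of IL1B (1.55 CPM per kb). IL33 came last, at 0 CPM per kb in induced and 0.00358 CPM per kb in non-induced cells.

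**Figure D3:**
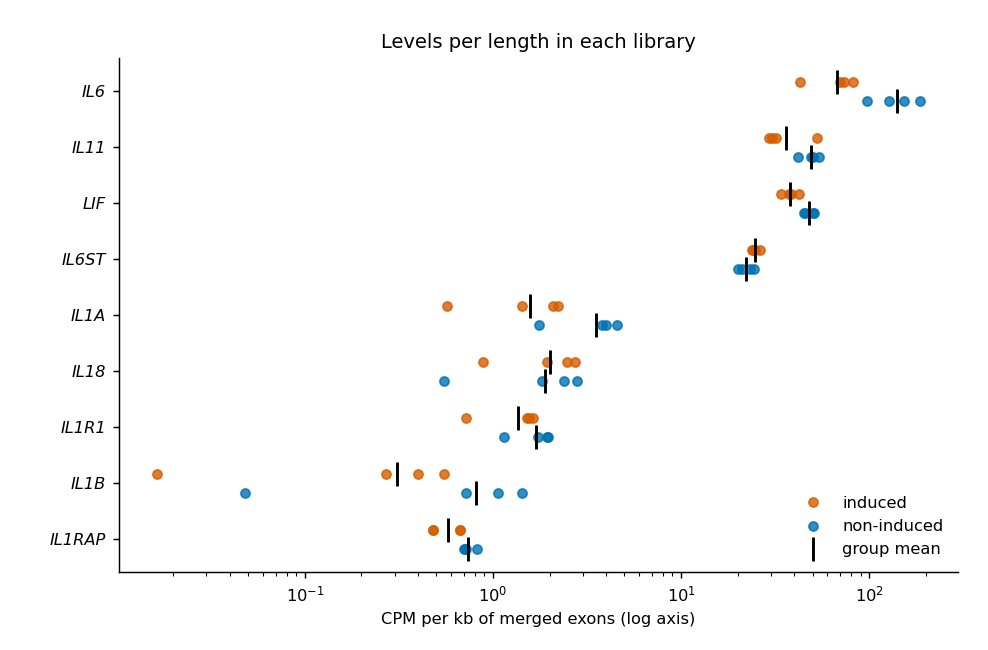
Level of 9 genes in CPM per kb of merged exons (x axis, log scale) in every library, with induced libraries above non-induced ones for each gene and black ticks at the group means. IL33, with 1 read in all, is not drawn. IL6, LIF, IL11 and IL6ST lay above 20 CPM per kb in all libraries, and the interleukin 1 family genes below 5 CPM per kb.

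Summed over the 7 ligands, the level was 131.3, 144.9, 159 and 145.9 CPM per kb in induced libraries 1 to 4, against 187.2, 228.8, 262.8 and 299 CPM per kb in non-induced libraries 1 to 4. IL6 made up 32.6% to 51.7% of this sum in induced and 52.1% to 62.5% in non-induced libraries. The share of LIF was 26% to 26.6% in induced and 17.01% to 24.4% in non-induced libraries. IL11 made up 18.5% to 40.3% in induced and 18.2% to 22.2% in non-induced libraries, with 40.3% in induced library 1. These shares depend on one another, since IL6 makes up much of the sum.

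The rest of both pathways was read from lists of genes by role, chosen with earlier results of these data known. Their counts and medians beside those of all tested genes are therefore no independent evidence. Without the block none of the 77 tested genes in these lists passed with edgeR, 29 had an unadjusted p under 0.05 and DESeq2 called 13, so the counts that follow are from the block fit, to be read against 6.29% of all tested genes called lower and 7.51% called higher, with a median log2 change of 0.00 over all tested genes. Of 14 further interleukin 1 family ligands, receptors and antagonists, 3 were tested and 5 had no read, among them the antagonist IL1RN. SIGIRR, a receptor that restrains interleukin 1 signalling, fell (log2 change -0.24, SE 0.06, adjusted p = 0.0167), a call lost without pair 2, 3 or 4 (adjusted p = 0.0533, 0.078 and 0.059). Of 8 tested genes of interleukin 1 maturation and release, 3 fell and none rose, with a median log2 change of -0.20. The inflammasome sensor NLRP3 was at 4.65 ± 1.85 CPM in induced and 7.72 ± 1.52 CPM in non-induced cells (SD, n = 4 each; log2 change -0.74, adjusted p = 0.00641). The calpain subunit CAPN2, of a protease class that cleaves the interleukin 1 alpha precursor, had a log2 change of -0.18, and S100A13, linked to interleukin 1 alpha release, had one of -0.27. Without pair 1 the inflammasome sensor NLRP1 was also called lower (log2 change -0.26, adjusted p = 0.0185).

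Among 14 tested genes of interleukin 1 receptor signalling, 2 fell and none rose, with a median log2 change of 0.00. The kinase IRAK2 was at 30.6 ± 3.54 CPM in induced and 51.3 ± 12.8 CPM in non-induced cells (SD, n = 4 each), without overlap of the groups (log2 change -0.73, SE 0.12, adjusted p = 0.0186). That call was lost without pair 2 (adjusted p = 0.0936) or pair 4 (adjusted p = 0.126). The IkB kinase subunit IKBKB had a log2 change of -0.24 (adjusted p = 0.00339). CHUK, another IkB kinase subunit, was called higher without pair 2 (log2 change 0.19, adjusted p = 0.0481). The adaptor MYD88, with a log2 change of 0.08, was not called (adjusted p = 0.482).

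For the gp130 family, 10 of 15 further ligands and receptors were tested, with a median log2 change of -0.01, and LIFR, the partner of gp130 in the LIF receptor, rose by 0.26 on the log2 scale (SE 0.08, adjusted p = 0.0315). The LIFR call was lost without pair 1, 2 or 4 (adjusted p = 0.0936, 0.115 and 0.145). IL6R, the ligand-binding subunit for interleukin 6, was at 5.20 ± 0.749 CPM in induced and 5.61 ± 0.361 CPM in non-induced cells (SD, n = 4 each; adjusted p = 0.607). Of 13 tested JAK-STAT genes 2 fell, SOCS3 and STAT5A. SOCS3, the feedback inhibitor of gp130 signalling, had 5.36, 26.7, 27.2 and 14.6 CPM in induced libraries 1 to 4, against 12.9, 45.4, 48.4 and 34.4 CPM in non-induced libraries 1 to 4. Its log2 change was -0.97 (SE 0.08, adjusted p = 3.93e-05 with the block and 0.666 without it), and the call held without each pair in turn. STAT5A had a log2 change of -0.27 and lost its call without pair 1 (adjusted p = 0.0748) or pair 4 (adjusted p = 0.137). PTPN11, a phosphatase of the pathway, was called higher without pair 2 (log2 change 0.16, adjusted p = 0.0303). STAT3, the main transcription factor of the pathway, was at 149 ± 8.997 CPM in induced and 147.5 ± 14.7 CPM in non-induced cells (SD, n = 4 each; adjusted p = 0.823).

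Response genes of interleukin 1 and NF-kB had the most negative median of these lists, -1.01 over 20 tested genes, of which 19 had a negative log2 change, 4 fell and none rose. The list was chosen with lower values of several of its genes already known, so its direction is no independent evidence. Those that fell were the NF-kB inhibitor TNFAIP3, the chemokine CCL20, the adhesion molecule ICAM1 and the growth factor CSF3. CCL20 was at 2.42 ± 1.13 CPM in induced and 11.9 ± 1.11 CPM in non-induced cells (SD, n = 4 each; adjusted p = 0.0188), a call lost without pair 3 (adjusted p = 0.106) or pair 4 (adjusted p = 0.126). CSF3 lost its call without pair 2, 3 or 4 and ICAM1 without pair 4, while TNFAIP3 kept its call without each pair. The count was 12 without pair 1, 3 without pair 2 or pair 3, and 1 without pair 4. Without the block 17 of the 20 had an unadjusted p under 0.05.

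Of 9 tested STAT3 response genes, 5 fell and 1 rose, with a median log2 change of -0.42. FGB, which encodes the fibrinogen beta chain, rose, at 6.53 ± 3.46 CPM in induced and 2.56 ± 1.62 CPM in non-induced cells (SD, n = 4 each; log2 change 1.38, SE 0.13, adjusted p = 2.07e-05 with the block and 0.514 without it). JUNB, a subunit of AP-1, had a log2 change of -0.42 (adjusted p = 6.90e-05), BCL3, an IkB family member, one of -0.50 (adjusted p = 0.00229) and CEBPB, a C/EBP factor, one of -0.29 (adjusted p = 0.0191). The CEBPB call was lost without pair 2, 3 or 4 (adjusted p = 0.0595, 0.0582 and 0.121). Calls in this list numbered 7 lower and 1 higher without pair 1, with the serum amyloid genes SAA1 and SAA2 added, near-identical copies whose reads may be split in counting, 3 lower and 1 higher without pair 3, and 2 lower and 1 higher without pair 2 or pair 4.

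**Figure D4:**
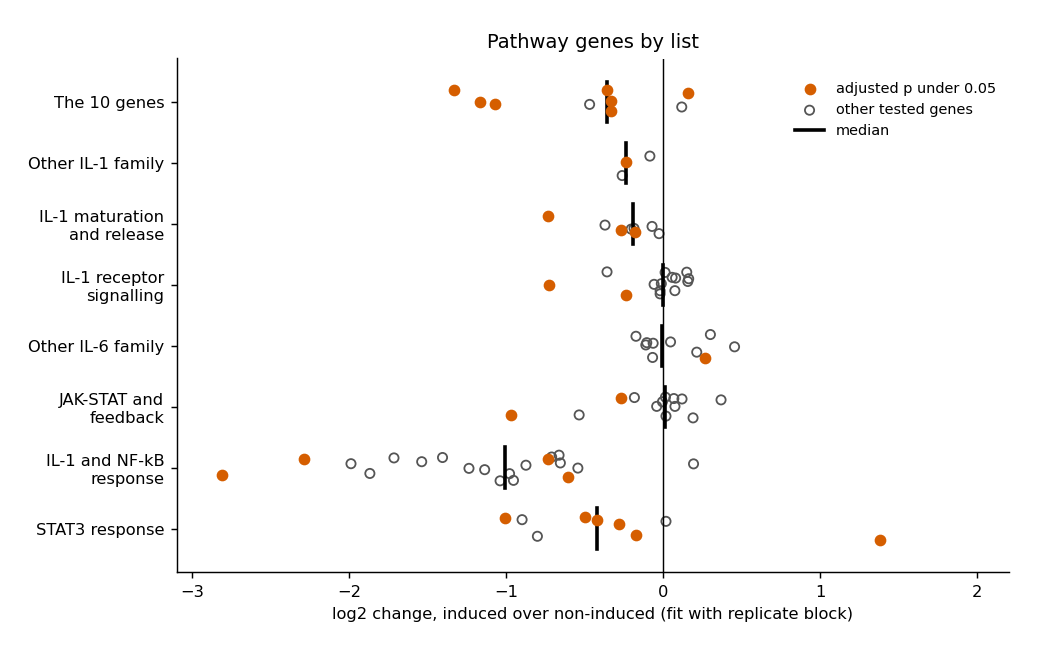
Log2 change of induced over non-induced cells in the fit with the replicate block (x axis) for the tested genes of the 10 and of 7 pathway lists (y axis). Filled points passed an adjusted p of 0.05, open points did not, and black bars are medians. The interleukin 1 and NF-kB response list had a median of -1.01, and the receptor signalling and JAK-STAT lists had medians near 0.

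Genes with the profile most like each member were found by the root mean square distance between log2 CPM values centred over the 8 libraries. This likeness includes the shared position of the libraries numbered 1 and is a description. The nearest gene to IL6 was SERPINA1 (distance 0.167), to IL1A PLPP3 (0.157), to LIF ETV6 (0.0356), to IL11 SALL4 (0.105), to IL1RAP CLDN1 (0.0764) and to IL6ST ZNF592 (0.0348). IL18 was nearest to CTGF (0.108) and ANKRD1 (0.122), neither of which passed (adjusted p = 0.487 and 0.622). For IL1B the 3 nearest genes, GABBR2 and ANPEP among them, lay at 0.379 to 0.443. Among the members themselves the closest profiles were those of IL1RAP and LIF (0.145), while IL6 and IL1A lay 0.389 apart. The distance is not scaled for how much a gene varies, so it tends to be small between genes that vary little. The root mean square of the centred profile itself was 0.258 for IL1RAP and 0.192 for LIF, against 0.643 for IL6 and 0.889 for IL1A.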

How the data were processed

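Total RNA of 8 AB8 libraries was sequenced as single reads of 75 bases on an Illumina NextSeq instrument from a directional kit, per the labels' protocols. The submitters' processing notes name HTSeq 0.11.1, HISAT2 2.1.0, Trimmomatic 0.38, bcl2fastq and DESeq2 1.24.0, with hg38 and GRCh38 as builds. Neither the annotation release nor the strand setting used for counting is given in the sources used here. Per gene, the authors deposited raw read counts under Ensembl IDs, which were the values tested. Their second deposited table, a normalized signal, equals these counts divided by 1 factor per library and was used only for that check. Of 58395 genes, 58275 matched GENCODE release 29.

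Genes were kept by filterByExpr (minimum count 10), scaled by TMM in edgeR 4.0.16 (R 4.3.3) and tested by robust quasi-likelihood (two-sided, with Benjamini-Hochberg adjustment over 15637 genes, FDR 0.05). CPM values use TMM-scaled totals, and for log2 CPM a prior of 2 counts was added. The planned fit has no replicate block. Deviations from the group means over 11502 genes correlated at 0.911, 0.704, 0.707 and 0.648 in the same-numbered pairs. Between differently numbered libraries, induced library 2 and non-induced library 3 correlated at 0.667, and induced library 3 and non-induced library 2 at 0.602. The numbers were taken to pair the libraries, although libraries 2 and 3 are only weakly told apart by these values. What a number stands for is not in the labels, and the libraries numbered 1, far from the rest, raise these correlations by themselves. Since no label states separate cultures, p-values reflect only spread among these libraries, which may be technical. Pair ratios have exact (Clopper-Pearson) 95% intervals that cover counting error only. Levels per length use merged exons of GENCODE 29, and promoter windows are from RefSeq. The members and gene lists were chosen with earlier results of these data known. Besides the members and CRB2, up to 4 called genes per list by smallest p (up to 2 where none was called) and the 3 nearest profiles per member could be named. MYD88, IL1RN, STAT3, IL6R, the marker genes and genes called only with a pair left out were named with their values known. The test was checked on simulated counts with 200 changed genes. DESeq2 1.42.0, other scalings, filters and left-out libraries were tried as alternatives, and the block with other scalings, filters or dispersion was added after seeing the data.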

Additional observations from a re-analysis of the deposited data

Results flagged for a closer look

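In groups of 4 libraries, a value was picked out where its gap to the nearest other library, over the range of the group, passed Dixon's 95% critical value for 4 values. This held for 4 of 20 groups, and chance alone gives about 1 in 20. IL11 in induced library 1 was 141.2 CPM, with the other induced libraries at 78.43 to 85.29 CPM. IL1R1 in induced library 1 was 5.105 CPM, with the others at 10.7 to 11.54 CPM. CRB2 in induced library 1 was 1731 CPM, with the others at 4246 to 4593 CPM. IL1RAP in non-induced library 3 was 9.51 CPM, with the other non-induced libraries at 8.113 to 8.344 CPM.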

How the results depend on the processing

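Over all genes the count of 6 without a block became 37 with no filter, 2159 with the replicate block, 187 with DESeq2, 1058 with DESeq2 and the block, 3 at an FDR of 0.01, 543 without both libraries numbered 1, and 3 to 16 without single libraries. The block count of 2159 became 895 at an FDR of 0.01, 1058 with DESeq2, and 909 to 1969 without single pairs (1254 without pair 3). Of the members, 0 were called without the block, 7 with it, 2 with DESeq2, 4 with DESeq2 and the block, 0 to 1 without single libraries (IL11 without induced library 1) and 5 without both libraries numbered 1. The 7 became 4 with a filter at 10 CPM, which leaves IL1A, IL1B, IL18 and IL1RAP untested, 4 with DESeq2, 3 at an FDR of 0.01, and 3 to 6 without single pairs. List genes numbered 0 without the block, 19 with the replicate block and 9 to 29 without single pairs. With DESeq2 and the block, IL1R1 (adjusted p = 0.132) and IL1RAP (adjusted p = 0.187) did not pass, and DESeq2 gave no adjusted p for IL1B. IL18, never called, had log2 changes of -0.10 without induced library 2, -0.03 without induced library 3 and -0.21 without non-induced library 1, against 0.09 with all libraries and up to 0.34 without non-induced library 3. The cause of these shifts was not tested. RLE, upper-quartile and library-total scaling with the block, and no robust estimation, called the same 7 members. Depth limits IL1B, with 278 reads in all, and IL33, with 1.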
